A study of Mus musculus with 64 samples.

Results

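The 34 mouse genes described here encode Integrator and the factors that cut and polyadenylate mRNA, and they were followed through 16 treatment comparisons in embryonic stem cells losing single subunits of RNA polymerase II (Pol II). They were taken by symbol and function from the 55335 genes of the count table, by a rule that uses no measured value, though drawn up with earlier results of these data known. They hold 13 Integrator subunits, 7 genes of the cleavage and polyadenylation specificity factor (CPSF) with symplekin, 3 of cleavage factor Im (CFIm), 4 of the cleavage stimulation factor (CstF), 2 of cleavage factor IIm (CFIIm), the exonuclease gene Xrn2, 3 genes for poly(A) polymerases and the nuclear poly(A)-binding protein, and Rbbp6. All 34 passed the filter on low counts.

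Integrator is a large complex that travels with Pol II, cuts the nascent RNA of small nuclear RNA genes and of many mRNA genes soon after their start, and carries a phosphatase that removes phosphate from Pol II and its partners. At the far end of an mRNA gene, CPSF, CstF and the cleavage factors read the polyadenylation signal, cut the transcript and hand it to poly(A) polymerase, after which the exonuclease Xrn2 degrades the RNA still being made and Pol II is released. These are broadly expressed genes, and they are themselves transcribed by the enzyme they act on.

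The cells were V6.5 mouse embryonic stem cells with an auxin-inducible degron, a tag that lets the auxin indole-3-acetic acid (IAA) trigger destruction of the tagged protein, on 1 of 12 Pol II subunits (lines RPB1 to RPB12), or without a tag (wild type, WT). After 12 h of 500 µM IAA, each of the 13 lines was compared with its own untreated cells (52 libraries, 26 groups of 2), and RPB1, RPB3 and RPB6 were also compared between 1 h and 0 h of IAA (12 libraries, 6 groups of 2). All groups, WT and untreated included, had doxycycline for 12 h to induce OsTir1, the plant auxin receptor. The doxycycline dose is 2 µg/ml in the treatment protocol and 1 µg/ml in the series text. RPB5, RPB6, RPB8, RPB10 and RPB12 are also subunits of Pol I and Pol III, RPB1 and RPB2 form the catalytic centre, and RPB4 and RPB7 form a stalk. The labels give neither the number of clones behind a line, nor whether WT carried OsTir1, nor whether the paired libraries were separate cultures, so p-values cover the spread between libraries of a group, which may be technical. The degron acts on protein, so mRNA counts do not show how far a subunit was lost.

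Depth was 3399838 to 7164928 counts per library at 12 h and 8598431 to 13281252 at 0 h and 1 h, and the 34 genes together took 0.283% to 0.457% of the counts at 12 h and 0.410% to 0.471% at 0 h and 1 h. Levels of single genes are in CPM, each library's counts brought to the same total by edgeR with its TMM factors. The marker sums in this paragraph are instead CPM of total counts, without TMM factors. Summed over 10 embryonic stem cell markers, the level was 3812 to 6364 CPM in IAA libraries at 12 h and 5282 to 7098 CPM in untreated ones. Over 7 fibroblast markers it was 2.29 to 24.2 CPM with IAA and 3.07 to 13.6 CPM untreated, with Postn and Dcn at 0 in every 12 h library. Over the 6 primitive endoderm markers it was 1.11 to 24.8 CPM with IAA and 3.33 to 24.4 CPM untreated, over the 5 trophectoderm markers 45.7 to 150.03 CPM with IAA and 80.7 to 135.05 CPM untreated, and over the 5 markers of the 2-cell-like state 0.257 to 35.5 CPM with IAA and 0.14 to 23.7 CPM untreated. In RPB1 the stem cell markers were at 3812 and 3886 CPM with IAA, against 6417 and 6445 CPM untreated, and the fibroblast markers at 24.2 and 24.0 CPM with IAA, against 6.44 and 8.03 CPM untreated. In RPB6 the stem cell markers were at 3959 and 4018 CPM with IAA, against 6085 and 6089 CPM untreated, and in RPB8 at 3939 and 4234 CPM with IAA, against 6418 and 6003 CPM untreated. The primitive endoderm markers were at 1.80 and 1.255 CPM with IAA and 8.70 and 6.29 CPM untreated in RPB2, and at 1.55 and 1.11 CPM with IAA and 7.87 and 7.61 CPM untreated in RPB6. The part of these markers in the results was not tested.

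Replicate libraries differed by a chi-square of 1.11 to 14.7 per gene, where about 1 is sampling noise alone. The pairs furthest apart were untreated RPB7 (14.7), RPB3 at 1 h (9.16), untreated RPB5 (8.24), untreated RPB11 (7.50) and RPB3 at 12 h of IAA (7.27), and the counts without each library are given beside the results where they move. A level in CPM is a share of the library, and a loss of all mRNA together would not be seen. In bulk RNA, fewer cells of a type and less RNA per cell cannot be told apart.

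In untreated cells all 34 genes were expressed, and per exon length Papola and Xrn2 stood highest. Papola, which encodes the main nuclear poly(A) polymerase, had the highest level per length, a median of 45.3 CPM per kb of exon over 26 untreated libraries, with a range of 36.3 to 58.2. Xrn2 followed at a median of 45.3 CPM per kb (range 34.7 to 54.6), and the ranges of the pair overlap almost wholly. Nudt21, the RNA-binding subunit of CFIm, came next at 35.9 CPM per kb. Ints6, an Integrator subunit that binds its phosphatase, was lowest at 4.28 CPM per kb, with a range of 2.00 to 7.62. Ints12 (4.31 CPM per kb) and Papolg (5.70 CPM per kb) were the next lowest, within the range of Ints6. Between untreated libraries the level varied most for Pabpn1, by 5.57-fold between the lowest and the highest of the 26. Of the exon length of Pabpn1, 21.45% is shared with Gm20521 on the same strand, and 14.3% of Ints5 is shared with Gm49416, so counts of these genes may hold or lack reads of the neighbour. Cstf2 and Cstf2t are related copies, as are Papola and its testis relative Papolb, and the sources used here do not say how reads that match both were counted, so their counts are uncertain.

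Loss of a subunit for 12 h asks how far each mRNA depends on it. Over the 12 degron lines, 218 changes of these genes passed the edgeR test (adjusted p under 0.05), 76 upward and 142 downward (18.6% and 34.8% of the 408 tests), beside 20.6% and 21.4% of the tests of all genes in these lines. Of the 34 genes, 20 rose in some lines and fell in others, 10 fell in some and rose in none, and 4 (Ints1, Cpsf1, Sympk and Pabpn1) rose in some and fell in none, all relative to the other mRNAs of the library. Scaled to the 13 mRNAs of the mitochondrial genome instead, none of the 34 was called higher in the 12 lines other than RPB3, WT included, and in RPB3 that scaling turns on 1 library. The shares of all genes that rose only, fell only or did both were not counted. The split of 20, 10 and 4 is thus not read as particular to the 34. Sympk rose in 10 lines, and Ints1 and Cpsf4 in 7 each. Ints7 and Wdr33 fell in 9 lines each and Xrn2 in 8.

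In RPB1, 6 of the 34 rose and 20 fell, beside 35.8% and 30.5% of all 17928 genes tested, and their median log2 fold change was -0.36 against 0.09 over all genes. In RPB5, 7 rose and 20 fell (31.0% and 28.1% of all genes, medians -0.50 and 0.08). In RPB8, 11 rose and 18 fell (31.5% and 30.2%, medians -0.56 and 0.04). The fallen share of the 34, 58.8% in RPB1, 58.8% in RPB5 and 52.9% in RPB8, stood above that of all genes in each of these lines. In this and the other comparisons of shares, the set of all genes tested was not matched to the 34 for expression level. Shares above those of all genes are thus not read as particular to the 34. Called lower in all 3 lines with TMM scaling were 15 of the 34, 44.1% beside 16.7% of all genes. Ints1, Sympk and Clp1 rose in all 3 (8.82% and 15.4%). In RPB2, 11 rose and 18 fell (27.9% and 34%, medians -0.37 and -0.19), and in RPB6, 16 rose and 14 fell (27.3% and 33.4%, medians 0.05 and -0.13). Among the degron lines, the risen share of the 34 stood furthest above that of all genes in RPB6 (47.1%).

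Fewer genes changed in the other lines. In RPB3, 5 rose and 12 fell (24.4% and 23.3% of all genes, medians -0.16 and 0.06), and in RPB7, 7 rose and 16 fell (20.2% and 21.1%, medians -0.23 and 0.00). In RPB9, 5 rose and 9 fell (16.8% and 18%), in RPB10, 6 rose and 10 fell (18.2% and 21.2%), and in RPB11, 2 rose and 5 fell (10.6% and 13.1%), and the share of the 34 that fell was 26.5%, 29.4% and 14.7% in these lines. Without IAA replicate 1 the RPB10 count was 10, against 16 with all libraries. The RPB11 count was 12 without untreated replicate 2 and 4 without IAA replicate 1, against 7 with all libraries. None of the 34 was called in RPB4 (2.08% of all genes), RPB12 (4.79%) or WT (1.65%) by edgeR or DESeq2. At an unadjusted p under 0.05, edgeR gave 0 in RPB4, 4 in RPB12 and 0 in WT.

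The split of calls moved with the scaling, since the median of all genes moved with it. Scaled to total counts, that median was -1.03 in RPB2, -0.75 in RPB6, 0.29 in RPB1, 0.24 in RPB3 and 0.17 in RPB5, and 6 rose and 24 fell in RPB2, 8 and 21 in RPB6, 8 and 7 in RPB3, 9 and 6 in RPB10, and 5 and 4 in RPB11. Scaled to mitochondrial mRNAs it was -2.32 in RPB2, -2.08 in RPB6, -1.43 in RPB8, -0.47 in RPB1, -0.46 in RPB5, -0.38 in RPB7, -0.24 in RPB10, -0.14 in RPB9, 0.12 in RPB4, 0.11 in RPB11 and 0.80 in RPB3. With that scaling none of the 34 rose and 33 fell in RPB2, 34 in RPB6, 30 in RPB8, 22 in RPB1, 23 in RPB5, 14 in RPB7, 2 in RPB9 and 4 in RPB10, while none was called in RPB11, and 18 rose and none fell in RPB3. The RPB3 split was 0 and 15 without IAA replicate 1 and 33 and 0 without IAA replicate 2, a check added after seeing the data, so its direction hangs on replicate 1 and no RPB3 change is read from that scaling. Mitochondrial mRNAs took 3.44% and 3.25% of counts in RPB2 with IAA, against 1.24% and 1.37% untreated, and 0.534% and 1.72% in RPB3 replicates 1 and 2 with IAA, against 1.27% and 1.30% untreated. Changes below are with TMM scaling, relative to the other mRNAs of the library.

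**Figure D1:**
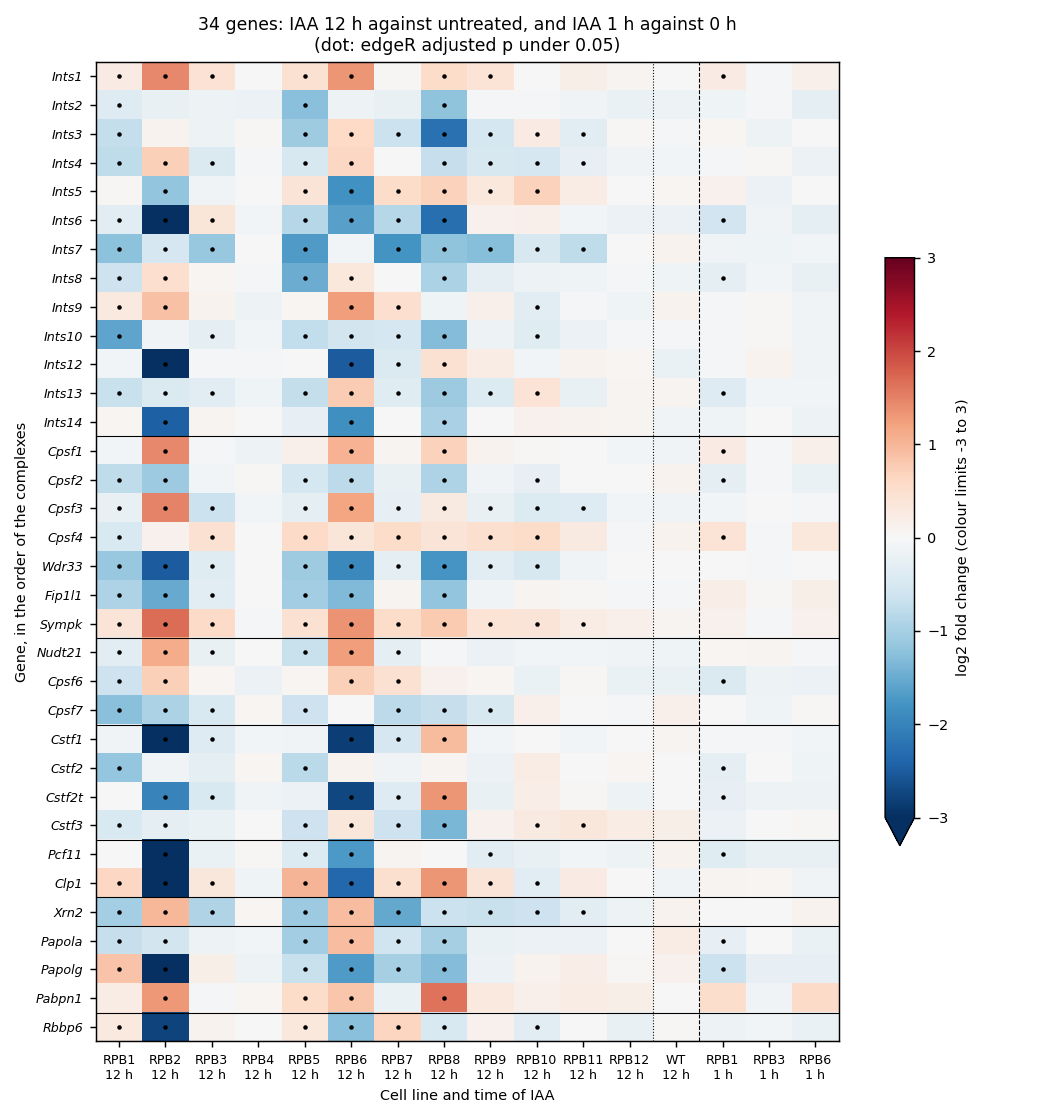
Log2 fold change of the 34 genes (rows, with lines between the complexes) after 12 h of IAA against untreated in the 12 degron lines and WT, and after 1 h against 0 h in 3 lines, with TMM scaling, where red is higher and blue lower with IAA, a dot marks an edgeR adjusted p under 0.05 and colour stops at -3 and 3 (the lowest value is -4.34, Ints6 in RPB2). The RPB2 and RPB6 columns hold the deepest blues. Among these genes, Ints6, Papolg and Rbbp6 are blue in RPB8 too, while Cstf1, Clp1 and Ints12 are red there. Of the 34 genes, 7 were called lower in all 3 lines, and 5 were called lower in RPB2 and RPB6 and higher in RPB8. Under scaling to mitochondrial mRNAs the risen genes of those 3 lines are below 0, except for Pabpn1 in RPB8.

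**Figure D2:**
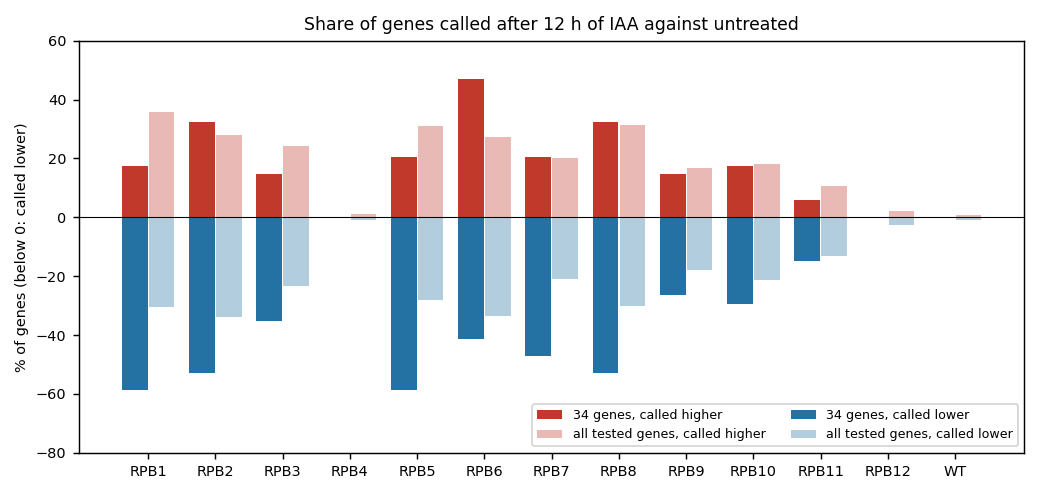
Share of genes (%) called higher (bars above 0) and lower (bars below 0) after 12 h of IAA against untreated with TMM scaling, for the 34 genes (full colour) and for all 17928 genes tested (pale). The fallen share of the 34 reached 58.8% in RPB1 and RPB5, where 30.5% and 28.1% of all genes fell, and under scaling to mitochondrial mRNAs none of the 34 is called higher in lines other than RPB3, where the direction hangs on 1 library.

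Ints5, Ints12, Cstf1, Cstf2t and Clp1 fell in RPB2 and RPB6 and rose in RPB8, a pattern of 14.7% of the 34 genes and 6.06% of all genes tested. All 5 keep these signs and calls with RLE size factors and with total counts, and none keeps them with mitochondrial mRNAs, where they stand at -0.82, -1.05, -0.55, -0.20 and -0.18 in RPB8. Ints1, Cpsf1, Cpsf3, Sympk and Pabpn1 rose in all 3 of these lines with TMM scaling, and with the mitochondrial scaling their values are below 0 in each line except for Pabpn1 in RPB8 (0.11). This pattern took also 14.7% of the 34 genes, a share near the 10.8% of all genes. Ints6, Ints14, Cpsf2, Wdr33, Fip1l1, Papolg and Rbbp6 fell in all 3 lines (20.6% and 15.1%), and Ints4, Ints8 and Xrn2 rose in RPB2 and RPB6 and fell in RPB8 (8.82% and 3.83%). With mitochondrial scaling the last 3 are below 0 in all 3 lines, and with total counts Ints4 and Ints8 are also below 0 in RPB2. The promoters of the 1st and 2nd of these sets are printed. Both sets were picked by their calls in RPB2, RPB6 and RPB8, so their moving together in these lines is no further result. RefSeq (GRCm38.p6) gave 30 promoters for 28 of the 34 genes. Ints5, Ints8, Ints9, Ints10, Cpsf1 and Wdr33 had none. The 150 bases before the transcription start are shown in the direction of the gene, and capitals mark matches, on either strand, to 1 of 9 motifs: SP/KLF (GGGCGG), ETS (CCGGAAG), NFY (CCAAT), the E-box (CACGTG), a core of NRF1 (GCGCATGC), a core of YY1 (AAGATGGC), CRE (TGACGTCA), ZNF143/THAP11 (ACTACAA) and the TBP motif (TATAAA). The 9 motifs were also counted in the same window of all 32851 promoters of the table.
Those that fell in RPB2 and RPB6 and rose in RPB8 lie at chr3:133091705-133091854, plus strand (Ints12), chr2:172370853-172371002, plus strand (Cstf1), chr19:31082691-31082840, plus strand (Cstf2t), and chr2:84727288-84727437, minus strand (Clp1).
Ints12: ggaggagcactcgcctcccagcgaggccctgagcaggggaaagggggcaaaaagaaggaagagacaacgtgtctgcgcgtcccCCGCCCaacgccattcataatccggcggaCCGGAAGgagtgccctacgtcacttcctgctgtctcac
Cstf1: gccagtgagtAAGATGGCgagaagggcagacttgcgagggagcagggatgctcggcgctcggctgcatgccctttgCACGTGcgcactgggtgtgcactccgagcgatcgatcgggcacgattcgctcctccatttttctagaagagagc
Cstf2t: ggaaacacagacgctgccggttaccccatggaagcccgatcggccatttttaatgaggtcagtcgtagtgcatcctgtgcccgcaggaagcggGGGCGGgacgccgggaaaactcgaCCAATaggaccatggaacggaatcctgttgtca
Clp1: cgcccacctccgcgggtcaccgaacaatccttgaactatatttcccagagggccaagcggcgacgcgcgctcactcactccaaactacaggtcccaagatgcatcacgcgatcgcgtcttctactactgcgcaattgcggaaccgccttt
Those that rose in RPB2, RPB6 and RPB8 lie at chr5:139775679-139775828, minus strand (Ints1), chr12:21286147-21286296, plus strand (Cpsf3), chr7:19024227-19024376, plus strand (Sympk), and chr14:54893993-54894142, plus strand (Pabpn1).
Ints1: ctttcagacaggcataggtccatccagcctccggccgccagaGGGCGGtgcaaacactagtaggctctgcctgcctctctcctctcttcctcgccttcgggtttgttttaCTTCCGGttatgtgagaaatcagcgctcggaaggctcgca
Cpsf3: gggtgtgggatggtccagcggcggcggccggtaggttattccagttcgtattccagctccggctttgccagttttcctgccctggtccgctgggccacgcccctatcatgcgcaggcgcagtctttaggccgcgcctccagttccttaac
Sympk: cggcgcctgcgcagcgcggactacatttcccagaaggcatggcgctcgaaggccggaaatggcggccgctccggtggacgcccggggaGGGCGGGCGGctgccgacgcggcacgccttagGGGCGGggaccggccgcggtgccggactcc
Pabpn1: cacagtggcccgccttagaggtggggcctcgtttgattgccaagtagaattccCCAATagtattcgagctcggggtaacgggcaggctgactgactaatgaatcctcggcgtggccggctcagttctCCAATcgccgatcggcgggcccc

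In these 8 sequences the SP/KLF letters stand in Ints12 and Cstf2t of the 1st set and in Ints1 and Sympk of the 2nd, so both sets hold it. The ETS letters stand in Ints12 and Ints1, NFY in Cstf2t and Pabpn1, and the E-box and the YY1 core in Cstf1. No motif of the 9 is in these windows of Clp1 and Cpsf3. Over the 30 promoters of the 34 genes, 53.3% hold the SP/KLF letters and 40% those of NFY, against 28.6% and 24.5% of all promoters. The ETS letters are in 16.7% and 5.52%, the E-box in 3.33% and 4.30%, the NRF1 core in 6.67% and 1.82%, CRE in 3.33% and 1.36%, the YY1 core in 3.33% and 0.861%, ZNF143/THAP11 in 0% and 1.82%, and the TBP motif in 0% and 7.57%. The median GC content was 63% over the 30 promoters and 54% over all, and the median count of CG pairs 13 and 4. The set of all promoters was not matched for expression or GC content, so these shares are not read as particular to the 34 genes.

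Integrator's subunits did not move as a unit. The phosphatase-binding subunit Ints6 had the lowest log2 fold change of any of the 34 genes. It had 3.81 and 3.73 CPM in RPB2 cells with IAA (8 counts in each library), against 82.1 and 72.3 CPM in untreated RPB2 cells. The RPB2 libraries with IAA lay far below the untreated ones, 20.3-fold at the fit (log2 fold change -4.34 ± 0.26 SE, adjusted p = 1.64e-19). In RPB8, Ints6 was at 16.0 and 15.0 CPM with IAA and 71.0 and 76.9 CPM untreated (-2.25 ± 0.17, adjusted p = 1.64e-15). In RPB6 it was at 20.5 and 20.3 CPM with IAA and 62.3 and 63.4 CPM untreated (-1.62 ± 0.17). Both lines showed no overlap between the groups. RPB3 was the exception, with 67.3 and 81.0 CPM after IAA and 55.5 and 59.96 CPM untreated, a rise of 0.36 ± 0.13 (adjusted p = 0.018) that did not pass without untreated replicate 1 (0.31) or IAA replicate 2 (0.20).

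Ints7, a subunit of the core, fell in 9 lines. In RPB7 it was at 26.04 and 28.3 CPM with IAA and 101 and 87.5 CPM untreated, a log2 fold change of -1.80 ± 0.12 (adjusted p = 2.42e-17). In RPB5 it was at 34.6 and 40.5 CPM with IAA and 124 and 119 CPM untreated (-1.69 ± 0.11). In both lines the IAA libraries lay far below the untreated ones. In RPB9 it was at 43.2 and 41.9 CPM with IAA and 101 and 104 CPM untreated (-1.27 ± 0.11), in RPB3 at 47.1 and 44.5 CPM with IAA and 101 and 102 CPM untreated (-1.15 ± 0.11), and in RPB11 at 66.2 and 57.6 CPM with IAA and 112 and 96.8 CPM untreated (-0.75 ± 0.10, adjusted p = 3.4e-07). In each of those 5 lines it was the gene of the 34 with the lowest called log2 fold change, with no overlap between groups. In RPB6 its log2 fold change of -0.09 ± 0.11 did not pass.

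Ints10, part of a module with Ints13 and Ints14, was the lowest of the 34 in RPB1, at 42.8 and 45.3 CPM with IAA and 133 and 130 CPM untreated (-1.58 ± 0.09, adjusted p = 5.58e-19). Its partners took other courses. Ints13 fell in 7 lines, lowest in RPB8 (-1.08), and rose in RPB6 (0.76) and RPB10 (0.41). Ints14 fell in RPB2 (-2.45), RPB6 (-1.85) and RPB8 (-0.97) and was called in no other line. The module thus had Ints13 higher and Ints10 and Ints14 lower in RPB6 with TMM scaling, and all 3 lower with the mitochondrial scaling.

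Ints1, the largest subunit and a scaffold of the complex, rose in 7 lines and fell in none with TMM scaling. In RPB2 it was at 446 and 458 CPM with IAA and 191 and 143 CPM untreated (1.44 ± 0.10, adjusted p = 1.3e-16), and in RPB6 at 470 and 409 CPM with IAA and 176 and 176 CPM untreated (1.32 ± 0.10). All 4 IAA libraries stood above the untreated ones. With scaling to mitochondrial mRNAs the values were -0.79 in RPB2 and -0.65 in RPB6.

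Ints5, another core subunit, was the highest called gene of the 34 in RPB10, at 89.3 and 85.1 CPM with IAA and 50.02 and 57.3 CPM untreated (0.70 ± 0.11, adjusted p = 6.02e-07). It was at 25.5 and 27.0 CPM with IAA and 91.2 and 95.2 CPM untreated in RPB6 (-1.83 ± 0.13). Ints12, the smallest subunit described here, was at 2.85 and 4.19 CPM with IAA (6 and 9 counts) and 35.5 and 36.2 CPM untreated in RPB2, 10.1-fold lower at the fit (-3.34 ± 0.26). In RPB8 it was at 58.3 and 57.0 CPM with IAA and 42.3 and 41.5 CPM untreated (0.46 ± 0.13, adjusted p = 0.002). The groups did not overlap in any of these comparisons.

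Ints3, also a subunit of a complex that binds single-stranded DNA, differed most between RPB8 and RPB6. It was at 27.5 and 29.0 CPM with IAA and 142 and 125 CPM untreated in RPB8, 4.74-fold lower (-2.24 ± 0.11, adjusted p = 2.6e-22). In RPB6 it was at 204 and 190 CPM with IAA and 131 and 130 CPM untreated (0.59 ± 0.09), which turns to -0.04 with total counts and -1.38 with mitochondrial mRNAs. The remaining Integrator genes had called changes between -1.48 (Ints8 in RPB5) and 1.25 (Ints9 in RPB6). Ints2, beside Ints7 a core subunit, fell in RPB1, RPB5 and RPB8 (-0.39, -1.24 and -1.20), Ints4 of the cleavage module fell in 7 lines (lowest -0.76 in RPB1) and rose in RPB2 and RPB6, Ints8, which binds the phosphatase, fell in 3 and rose in 2, and Ints9 of the cleavage module rose in 4 and fell in RPB10 (-0.33). Of the exon length of Ints8, 8.15% is shared with Ccne2 on the other strand. In RPB8, 3 of the 13 Integrator genes rose and 9 fell (beside 31.5% and 30.2% of all genes), in RPB5 2 rose and 8 fell (31.0% and 28.1%), in RPB7 2 rose and 6 fell (20.2% and 21.1%), and in RPB6 6 rose and 5 fell (27.3% and 33.4%).

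**Figure D3:**
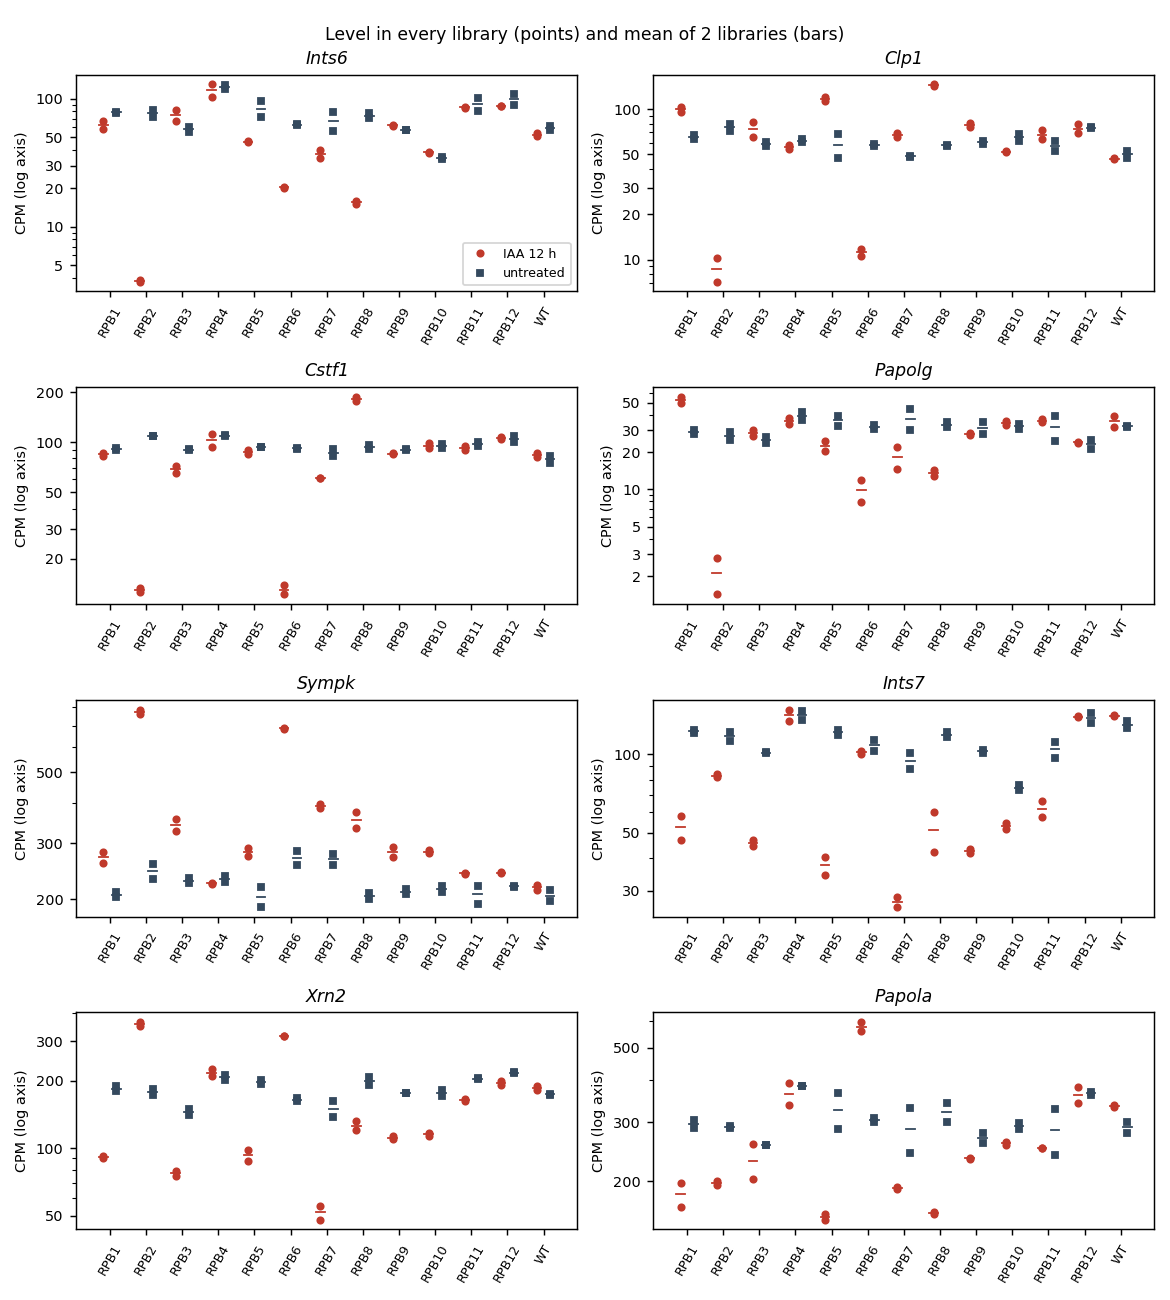
Level (CPM, log axis) of 8 genes in each library (points) after 12 h of IAA (red circles) and untreated (dark squares), by line, with the mean of 2 libraries as a bar. Ints6, Clp1, Cstf1 and Papolg reach their lowest levels in RPB2 or RPB6 with IAA, Cstf1 and Clp1 their highest in RPB8 with IAA, Ints7 is low with IAA in 9 lines, and Sympk, Xrn2 and Papola are high in RPB6 with IAA, which does not hold with scaling to mitochondrial mRNAs (-0.61, -1.03 and -1.04).

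Among the CPSF genes, Sympk and Cpsf1 rose wherever they were called with TMM scaling (with mitochondrial mRNAs they are below 0 in RPB2, RPB6 and RPB8), while Cpsf4 and Wdr33 went apart. Sympk encodes symplekin, which joins CPSF to CstF. It was at 765 and 787 CPM with IAA and 257 and 232 CPM untreated in RPB2 (1.67 ± 0.08, adjusted p = 5.75e-23), and at 685 and 691 CPM with IAA and 255 and 282 CPM untreated in RPB6 (1.36 ± 0.08, adjusted p = 8.14e-20). Its levels in these 4 IAA libraries were above those of all other libraries at 12 h. Outside them the highest level was 399 CPM, in RPB7 with IAA, where the second library had 387 CPM and the untreated ones 256 and 278 CPM (0.56 ± 0.08). In RPB3 Sympk was the highest called gene, at 356 and 328 CPM with IAA and 225 and 233 CPM untreated (0.58 ± 0.08, adjusted p = 3.38e-08). With the mitochondrial scaling Sympk turns to -0.55 in RPB2 and -0.61 in RPB6. The rise in RPB11 (0.22) did not pass without untreated replicate 1 (0.13), IAA replicate 1 (0.22) or IAA replicate 2 (0.21).

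Cpsf4, which reads the polyadenylation signal together with Wdr33, rose in 7 lines by 0.37 to 0.58 and fell in RPB1. It was the highest called gene of the 34 in RPB9, at 121 and 123 CPM with IAA and 91.5 and 82.7 CPM untreated (0.48 ± 0.11, adjusted p = 0.000436). In RPB1 it was at 59.9 and 74.4 CPM with IAA and 94.9 and 90.7 CPM untreated (-0.47 ± 0.12, adjusted p = 0.000529). The sign is turned by mitochondrial scaling in RPB6 (-1.59) and RPB8 (-1.12), and by total counts in RPB6 (-0.25).

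Wdr33 was called lower in 9 lines with TMM scaling, among them all 7 in which Cpsf4 rose. In RPB2 it was at 29.0 and 31.7 CPM with IAA and 164 and 177 CPM untreated, 5.61-fold lower (-2.49 ± 0.10, adjusted p = 7.14e-25), and in RPB8 at 40.3 and 41.7 CPM with IAA and 146 and 136 CPM untreated (-1.78 ± 0.09). In RPB1 it was at 65.7 and 72.6 CPM with IAA and 152 and 151 CPM untreated (-1.13 ± 0.08). The groups did not overlap in these lines. In RPB3 the value of -0.37 is 0.46 with the mitochondrial scaling, which hangs on 1 library there.

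Cpsf3, the endonuclease that makes the cut, fell in 7 lines (lowest -0.65 in RPB3) and rose in RPB2, RPB6 and RPB8. In RPB2 it was at 393 and 420 CPM with IAA and 132 and 158 CPM untreated (1.48 ± 0.09, adjusted p = 6.16e-20), and in RPB6 at 313 and 326 CPM with IAA and 145 and 138 CPM untreated (1.18 ± 0.09). The largest CPSF protein is the product of Cpsf1, which rose in the same 3 lines (1.44, 1.05 and 0.69) and fell in none. Cpsf2, an inactive relative of the endonuclease, fell in 6 lines, lowest in RPB2 (-1.08). Fip1l1, which brings in poly(A) polymerase, fell in 6 lines, lowest in RPB2 (-1.50). With mitochondrial scaling the rises of Cpsf1 and Cpsf3 turn to falls in all 3 lines. Of the 7 genes, 3 rose and 3 fell in RPB2 (beside 27.9% and 34% of all genes), 4 rose and 3 fell in RPB6 (27.3% and 33.4%), and 4 rose and 3 fell in RPB8 (31.5% and 30.2%).

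CFIm takes part in the choice among polyadenylation sites, and with TMM scaling 2 of its 3 genes rose in RPB2 and RPB6, which turns with mitochondrial mRNAs. Nudt21 was at 438 and 439 CPM with IAA and 197 and 209 CPM untreated in RPB2 (1.11 ± 0.08), and at 399 and 417 CPM with IAA and 172 and 172 CPM untreated in RPB6 (1.25 ± 0.08, adjusted p = 1.25e-18). It fell in RPB1, RPB3, RPB5 and RPB7, lowest in RPB5 (-0.67). Cpsf6 rose in RPB2, RPB6 and RPB7 (0.72, 0.71 and 0.45) and fell in RPB1 (-0.61). Its alternative partner Cpsf7 fell in 7 lines, lowest in RPB1 (-1.26), and was at 0.00 in RPB6. With the mitochondrial scaling Nudt21 turns to -1.10 in RPB2 and -0.72 in RPB6, and Cpsf6 to -1.50 and -1.25, while Cpsf6 in RPB2 is also at -0.14 with total counts.

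The CstF genes split by line. Cstf1 was the lowest of the 34 in RPB6, at 12.3 and 13.8 CPM with IAA and 92.4 and 91.4 CPM untreated, 7.04-fold lower (-2.82 ± 0.13, adjusted p = 1.17e-23). In RPB2 it was at 13.3 and 12.6 CPM with IAA and 109 and 109 CPM untreated (-3.07 ± 0.14), and in RPB8 at 187 and 177 CPM with IAA and 90.9 and 97.0 CPM untreated (0.95 ± 0.08, adjusted p = 1.47e-13). The RPB8 libraries with IAA held the highest Cstf1 levels of the 12 h set and those of RPB2 and RPB6 with IAA the lowest. Cstf2t, a copy of Cstf2 that binds the RNA downstream of the cut and has 1 exon, was at 8.94 and 9.45 CPM with IAA and 66.1 and 57.3 CPM untreated in RPB6 (-2.74 ± 0.17, adjusted p = 4.66e-19), and at 181 and 190 CPM with IAA and 74.5 and 74.9 CPM untreated in RPB8 (1.31 ± 0.10, adjusted p = 3.6e-15). Cstf2 itself fell in RPB1 (-1.15) and RPB5 (-0.81) and was called in neither RPB6 (0.10 ± 0.12) nor RPB8 (0.07 ± 0.12). Cstf3, the scaffold of CstF, fell in 5 lines, lowest in RPB8 (-1.36), and was the highest called gene of the 34 in RPB11, at 115 and 111 CPM with IAA and 97.7 and 81.6 CPM untreated (0.34 ± 0.09, adjusted p = 0.00602). That last call did not pass without untreated replicate 2 (0.21) or IAA replicate 1 (0.31). With mitochondrial scaling Cstf1 and Cstf2t turn to -0.55 and -0.20 in RPB8.

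Of the CFIIm pair, Clp1, an RNA kinase, was called in 9 lines in either direction. It was at 7.14 and 10.3 CPM with IAA (15 and 22 counts) and 71.5 and 79.8 CPM untreated in RPB2, 8.69-fold lower (-3.12 ± 0.20, adjusted p = 7.03e-19), and at 10.6 and 11.8 CPM with IAA and 58.4 and 57.0 CPM untreated in RPB6 (-2.36 ± 0.17). In RPB8 it was at 142 and 146 CPM with IAA and 57.2 and 57.6 CPM untreated (1.33 ± 0.12, adjusted p = 7.48e-14), and in RPB5, where it was the highest called gene of the 34, at 114 and 121 CPM with IAA and 47.0 and 68.3 CPM untreated (1.01 ± 0.11, adjusted p = 1.76e-10). The groups did not overlap in these 4 lines. Scaled to mitochondrial mRNAs, Clp1 is at -0.18 in RPB8. Pcf11, which binds the tail of Pol II and helps release it, fell in RPB2 (-2.98), RPB6 (-1.73), RPB5 (-0.41) and RPB9 (-0.31).

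Xrn2, the exonuclease of termination, fell in 8 lines and rose in RPB2 and RPB6. In RPB7 it was at 55.6 and 48.1 CPM with IAA and 162 and 138 CPM untreated (-1.54 ± 0.08, adjusted p = 1.57e-19), and in RPB10, where it was the lowest of the 34, at 117 and 114 CPM with IAA and 181 and 171 CPM untreated (-0.61 ± 0.08, adjusted p = 1.78e-08). In RPB2 it was at 363 and 351 CPM with IAA and 173 and 183 CPM untreated (1.00 ± 0.08), and in RPB6 at 315 and 315 CPM with IAA and 163 and 167 CPM untreated (0.93 ± 0.08). The 4 libraries of RPB2 and RPB6 with IAA were above all others at 12 h with TMM scaling. With mitochondrial scaling Xrn2 turns to -1.21 in RPB2 and -1.03 in RPB6.

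With TMM scaling Papola went in opposite directions in RPB2 and RPB6, while Papolg fell in both. Papola was at 201 and 194 CPM with IAA and 292 and 288 CPM untreated in RPB2 (-0.55 ± 0.12, adjusted p = 0.000107), and at 594 and 559 CPM with IAA and 308 and 300 CPM untreated in RPB6 (0.93 ± 0.11, adjusted p = 1.01e-09, -1.04 with mitochondrial scaling). It fell in RPB1, RPB5, RPB7 and RPB8 as well, lowest in RPB5 (-1.05). Papolg, its nuclear relative, was at 1.43 and 2.80 CPM with IAA (3 and 6 counts) and 29.2 and 24.8 CPM untreated in RPB2 (-3.65 ± 0.39, adjusted p = 2.3e-11), and at 7.95 and 11.8 CPM with IAA and 31.0 and 33.3 CPM untreated in RPB6 (-1.70 ± 0.24). RPB1 was the one line in which Papolg rose, and there it was the highest called gene of the 34, at 55.6 and 49.8 CPM with IAA and 27.8 and 30.2 CPM untreated (0.86 ± 0.17, adjusted p = 2.23e-05). Pabpn1, which coats new poly(A) tails, was the highest in RPB8, at 119 and 120 CPM with IAA and 47.7 and 28.9 CPM untreated (1.64 ± 0.21, adjusted p = 3.85e-09), and also rose in RPB2, RPB5 and RPB6. Its untreated RPB8 libraries differed by more than its IAA libraries did. With mitochondrial scaling the value falls to 0.11 in RPB8 and is no longer called, and it turns to -0.92 in RPB2, -1.13 in RPB6 and -0.02 in RPB5.

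Rbbp6, an activator of cleavage, was the highest called gene in RPB7, at 179 and 197 CPM with IAA and 135 and 105 CPM untreated (0.65 ± 0.11, adjusted p = 2.16e-06). In RPB2 it was at 19.5 and 15.4 CPM with IAA and 128 and 113 CPM untreated, 6.88-fold lower (-2.78 ± 0.17, adjusted p = 2.42e-19). It also rose in RPB1 and RPB5 and fell in RPB6, RPB8 and RPB10.

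WT cells in IAA give the background of the auxin itself, and each line's response was tested against that of WT in the same fit. These 12 differences share the WT libraries, so they are not independent of each other. Relative to WT, 11 of the 34 genes were higher and 18 lower in RPB2 (24.3% and 31.2% of all genes), 14 and 14 in RPB6 (23.9% and 30.2%), 11 and 18 in RPB8 (23.9% and 25.6%), 4 and 19 in RPB5 (20% and 22.3%), 3 and 16 in RPB1 (23.9% and 25.1%), 7 and 12 in RPB7 (11.4% and 13.8%), and 4 and 10 in RPB3 (12.9% and 15.3%). In RPB10 they were 3 and 7 (10.9% and 14.7%), in RPB9 2 and 7 (8.07% and 9.91%) and in RPB11 0 and 2 (4.68% and 6.61%). None differed from WT in RPB4 (0.284% of all genes) or RPB12 (0.53%), where edgeR gave 0 and 1 at an unadjusted p under 0.05, and DESeq2 was not run on differences. With total counts the splits were 5 and 23 in RPB2, 6 and 20 in RPB6, 6 and 14 in RPB1, 6 and 5 in RPB3, 4 and 5 in RPB9 and 5 and 4 in RPB10, and with RLE size factors 5 and 14 in RPB1. With mitochondrial mRNAs they were 9 and 0 in RPB3, a split not refitted without IAA replicate 1, while none was higher in the other lines and 29 were lower in RPB2, 28 in RPB6, 26 in RPB8, 17 in RPB5, 15 in RPB1, 4 in RPB7, 1 in RPB9 and 0 in RPB10 and RPB11.

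The contrasts between lines were tested as differences of responses, in which these lines share no library. Between RPB2 and RPB8, a pair added after seeing the data, 17 genes were higher and 11 lower in RPB2 (26.1% and 27.1% of all genes). Clp1 had the lowest difference of responses, -4.45 ± 0.23 (adjusted p = 2.71e-21), followed by Cstf1 (-4.03 ± 0.16), Ints12 (-3.80 ± 0.30) and Cstf2t (-3.31 ± 0.19), and Ints3 had the highest, 2.36. Between RPB6 and RPB8, also added after seeing the data, 19 were higher and 9 lower in RPB6 (26% and 26.1%), with Cstf2t at -4.06 ± 0.20 (adjusted p = 5.36e-22) and Ints3 at 2.83 ± 0.14 (adjusted p = 1.09e-21). For RPB2 minus RPB8 the split was 7 and 17 with total counts and 2 and 15 with mitochondrial mRNAs. For RPB6 minus RPB8 it was 12 and 14 with total counts and 5 and 9 with mitochondrial mRNAs.

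Against RPB1, 16 genes were higher and 12 lower in RPB2 (27.5% and 35.1% of all genes), and 20 higher and 12 lower in RPB6 (28.4% and 35%). With total counts the split was 6 and 20 for RPB2 and 11 and 14 for RPB6, and with mitochondrial mRNAs 0 and 21 for RPB2 and 0 and 14 for RPB6. Papolg had the lowest difference for RPB2 minus RPB1 (-4.51 ± 0.43, adjusted p = 7.33e-13) and Xrn2 the highest (2.01 ± 0.11, adjusted p = 4.21e-20). Of the 34 genes 10 were higher and 4 lower in RPB6 than in RPB2 (9.95% and 6.03% of all genes, 17 and 0 with total counts, 9 and 6 with RLE size factors, 6 and 0 with mitochondrial mRNAs). The highest difference was that of Ints6, 2.72, which fell less in RPB6, and Papola (1.48 ± 0.17, adjusted p = 4.92e-09) and Ints13 (1.20 ± 0.16, adjusted p = 1.54e-07) were called in opposite directions in these lines. Over the 34 genes the RPB2 and RPB6 responses had a Spearman correlation of 0.90, and over all 17928 genes of 0.73, a description across genes that are not independent replicates. For RPB2 and RPB8 these were 0.25 and 0.33.

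In RPB8 and RPB5 the response of the 34 genes followed their length. Gene span, from start to end in GENCODE M21 on mm10, ran from 4.23 kb (Cstf2t, chr19:31082837-31087069) to 103 kb (Wdr33). Over the 34 genes, the Spearman correlation of span with log2 fold change was -0.77 in RPB8, -0.65 in RPB5, -0.45 in RPB11 and -0.42 in RPB1, and over all coding genes -0.47, -0.27, -0.12 and -0.23. In RPB8 all 8 genes under 20 kb rose, with a median of 0.82, and 11 of the 12 of 40 kb or more fell, with a median of -1.20, where the medians of all coding genes were 0.51 and -0.74. In RPB5, 4 of the 8 short genes rose and none fell, and 11 of the 12 long ones fell. Their medians in RPB5 were 0.27 and -1.06, where those of all short and long coding genes were 0.27 and -0.31. RPB2 and RPB6 had no such order, with correlations of 0.04 and 0.19, and there 5 of the 8 short genes fell (medians -1.59 and -2.09, against 0.00 and 0.00 for all short coding genes). These 5 are Ints5, Ints12, Cstf1, Cstf2t and Clp1, the set described above that rose in RPB8, so this is no separate result. With mitochondrial scaling 7 of the 8 short genes are below 0 in RPB8, all but Pabpn1, so the rise holds relative to other mRNAs. The shares of all short and all long coding genes called were not counted. The counts called by span are thus not read as particular to the 34 genes. Whether span or something that goes with it matters was not tested.

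**Figure D4:**
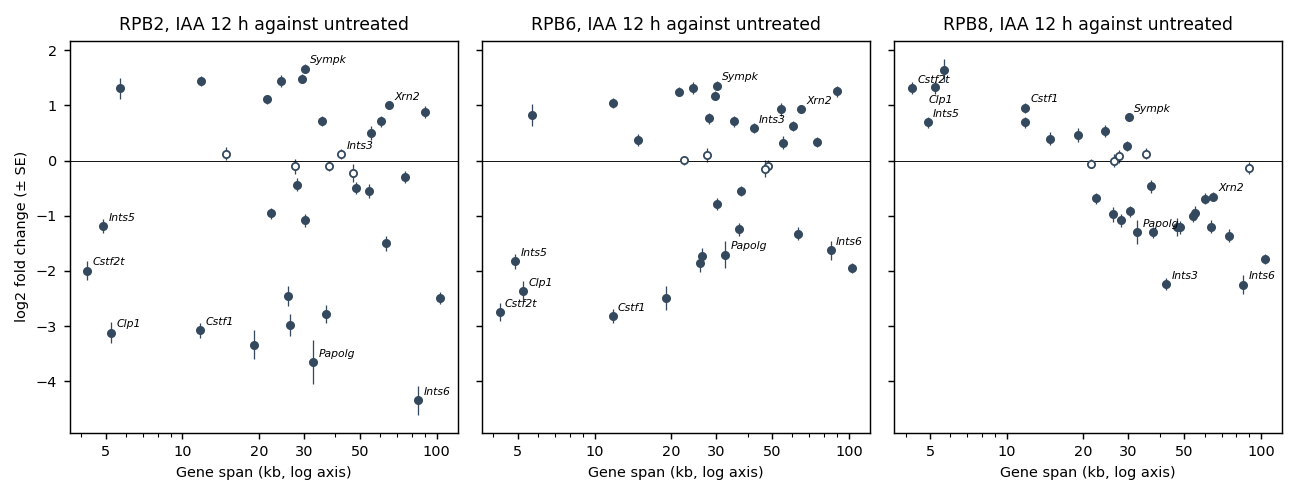
Log2 fold change (± SE, TMM scaling) after 12 h of IAA against gene span (kb, log axis) for the 34 genes in RPB2, RPB6 and RPB8, with filled points for those that passed the edgeR test. In RPB8 the 8 genes under 20 kb are all above 0 (with mitochondrial scaling, only Pabpn1 is), while Clp1, Cstf2t, Cstf1 and Ints5 lie at -1.19 to -3.12 in RPB2.

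After 1 h of IAA, 13 of the 34 genes had changed in RPB1, 3 upward and 10 downward (11.0% and 13.9% of the 15658 genes tested, median -0.06 against 0.01). Papolg fell furthest, to 36.7 and 28.3 CPM at 1 h, against 53.6 and 47.9 CPM at 0 h (-0.64 ± 0.15, adjusted p = 0.00469). Ints6 had 71.5 and 65.3 CPM at 1 h and 102 and 100.4 CPM at 0 h (-0.56 ± 0.08, adjusted p = 0.000178), and Cpsf6 had 265 and 258 CPM at 1 h and 365 and 340 CPM at 0 h (-0.43 ± 0.09, adjusted p = 0.00207). All 1 h libraries lay below all 0 h libraries for these 3 genes. Papolg was thus lower at 1 h and higher at 12 h in RPB1, each against its own control, in libraries fitted apart. The control levels differ: the RPB1 libraries at 0 h lay above all 26 untreated libraries of the 12 h set (21.1 to 44.2 CPM). The change of direction is therefore not read as a course over time.

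The other Integrator genes called in RPB1 at 1 h were Ints13, Ints8 and Ints1. Ints13 had 100.05 and 96.05 CPM at 1 h and 132 and 124 CPM at 0 h (-0.39 ± 0.08), Ints8 had 104 and 105 CPM at 1 h and 132 and 126 CPM at 0 h (-0.30 ± 0.08), and Ints1 had 213 and 208 CPM at 1 h and 174 and 180 CPM at 0 h (0.25 ± 0.07). Among the CPSF genes, Cpsf4 was the highest called gene, with 101 and 107 CPM at 1 h and 76.6 and 79.2 CPM at 0 h (0.42 ± 0.09, adjusted p = 0.00318), and Cpsf1 had 226 and 227 CPM at 1 h and 188 and 196 CPM at 0 h (0.24 ± 0.07). The 3 risen genes showed no overlap of the groups. Pabpn1 had a higher value that did not pass, with 65.6 and 68.4 CPM at 1 h and 42.4 and 50.4 CPM at 0 h (0.53 ± 0.23, adjusted p = 0.0974).

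In RPB1 at 1 h, Cpsf2 had 111 and 113 CPM at 1 h and 139 and 137 CPM at 0 h (-0.30 ± 0.08), and Pcf11 had 109 and 97.1 CPM at 1 h and 141 and 124 CPM at 0 h (-0.36 ± 0.09). Papola had 350 and 328 CPM at 1 h and 411 and 393 CPM at 0 h (-0.24 ± 0.08), Cstf2 had 123 and 133 CPM at 1 h and 160 and 153 CPM at 0 h (-0.29 ± 0.08), and Cstf2t had 58.6 and 53.1 CPM at 1 h and 67.9 and 64.4 CPM at 0 h (-0.24 ± 0.09, adjusted p = 0.0459). These 5 genes were lower in each 1 h library than in each 0 h library. The count of 13 was 4 without 0 h replicate 1, 6 without 1 h replicate 1 and 5 without 1 h replicate 2, and with scaling to mitochondrial mRNAs it was 3, all lower. In RPB3 and RPB6 none of the 34 was called at 1 h by the edgeR fit of the 12 libraries (0.358% and 1.54% of all genes) or DESeq2, with 1 in RPB3 and 10 in RPB6 at an unadjusted p under 0.05 in edgeR. In RPB6, edgeR called 3 with the replicate block, 2 with no filter and 2 with its 4 libraries alone.

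**Figure D5:**
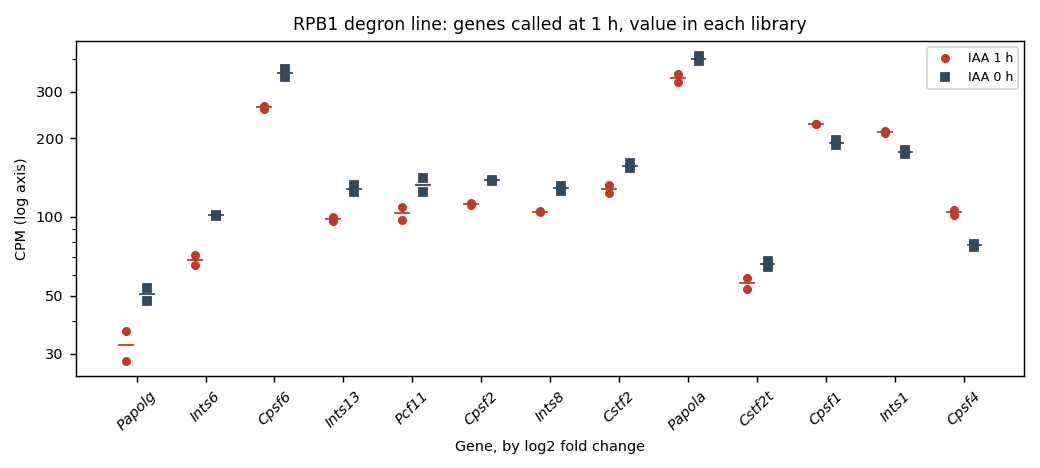
Level (CPM, log axis) in each library of the 13 genes called in RPB1 at 1 h of IAA (red circles) against 0 h (dark squares), ordered by log2 fold change, with the mean of 2 libraries as a bar. Papolg, Ints6 and Cpsf6 are furthest down, and Cpsf1, Ints1 and Cpsf4 are higher at 1 h, which is not called with scaling to mitochondrial mRNAs.

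Of a list of 42 other genes of the same processes, 41 were in the table (Ints15 had no match). In RPB2, 11 of the 41 rose and 27 fell, 26.8% and 65.9% beside 27.9% and 34% of all genes. In RPB6 11 rose and 24 fell (26.8% and 58.5%, beside 27.3% and 33.4%), and in RPB8 15 rose and 21 fell (36.6% and 51.2%, beside 31.5% and 30.2%). In RPB1 10 rose and 18 fell (24.4% and 43.9%, beside 35.8% and 30.5%), and in RPB5 17 rose and 14 fell (41.5% and 34.1%, beside 31.0% and 28.1%). Ints11, the endonuclease of Integrator, rose in RPB2, RPB5, RPB6, RPB8 and RPB10 (highest 0.90 in RPB2) and fell in none. Ncbp2, a cap-binding protein, rose in 9 lines, by 0.37 to 1.67, Nabp1, a partner of Ints3, rose in 8 lines (highest 2.89 in RPB1) and fell in RPB2 and RPB6 (-2.20 and -2.18), and Ccnk, a cyclin of Pol II tail kinases, rose in 7 (highest 0.94 in RPB6). Ppp2ca, the catalytic subunit of the phosphatase that Integrator carries, fell in 9 lines (lowest -1.86 in RPB2), as did Rprd2, a binder of the Pol II tail (lowest -1.95 in RPB2). Of the exon length of Ints11, 22.7% is shared with Pusl1 on the other strand. Of that of Ppp2ca, 41.3% is shared with other genes, 1.215% on the same strand. The strand setting of the counts is not named, so counts of Ints11 and Ppp2ca may hold or lack reads of their neighbours.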

How the data were processed

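Poly(A) RNA-seq libraries (the library type is named in the labels for the 12 h samples only) were made with 10% Drosophila S2 cells added as spike-in, whose counts were not analysed here. The authors deposited raw read counts per gene, whole numbers that are not normalised. Per the submitters' processing notes, the tools named are featureCounts, STAR, Bowtie2, DESeq2, cutadapt 1.18, deepTools and SAMtools, and the builds mm10 and dm6, with no role or order stated, and the annotation and the strand setting are not named there. The 64 libraries were grouped by their labels into 32 groups of 2, and 4 columns of no listed sample were not used. Names came from GENCODE M21 (55154 of 55335 genes).

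edgeR 4.0.16 (limma 3.58.1, R 4.3.3) was run with TMM scaling, the filter filterByExpr, glmQLFit and glmQLFTest, 2-sided, with Benjamini-Hochberg adjustment over all genes tested. The 52 libraries at 12 h (17928 genes, 26 residual degrees of freedom) and the 12 at 0 h and 1 h (15658 genes, 6 residual degrees of freedom) were fitted apart, each pooling the spread over its groups, and no call was made on levels across the fits. Standard errors are the log2 fold change divided by the root of its F value. Differences between lines are contrasts in the same fit. Alternatives were RLE size factors, total counts, mitochondrial mRNAs, no filter, DESeq2 1.42.0, the 4 libraries of a comparison alone, leaving out each library and a replicate block. The edgeR step was tested on simulated counts. Python 3.11.15, pandas 2.3.3, numpy 2.4.6, scipy 1.17.1 and matplotlib 3.10.9 made the tables and figures. Overlapping genes and related copies were kept, and their counts are uncertain.

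Named genes were those called in the most comparisons in each direction, the highest and lowest called gene in each comparison with 5 or more calls, those called at 1 h, those called in opposite directions, and the highest and lowest in untreated cells. Other genes printed with their values were chosen after seeing them. The members and lists were chosen with earlier results of these data known.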

Additional observations from a re-analysis of the deposited data

Results flagged for a closer look

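The same treatment changed some of the 34 genes in opposite directions in different lines, with both responses called with TMM scaling and the difference between them tested and called by edgeR. Only genes with both responses called and opposite were listed, so the call of the difference adds no further support. The values are the log2 response of the line named first minus that of the line named second, and most depend on the scaling. Among these pairs, the share of all genes called in opposite directions was counted for RPB6 and RPB2 only. The counts for the other pairs are not read as particular to the 34. Of the 46 oppositions below, all 46 keep opposite signs with RLE size factors (40 with both calls), 33 with total counts (21 with both calls) and 4 with mitochondrial mRNAs (0 with both calls), the 4 being Clp1 and Papolg in RPB2 and in RPB6, each against RPB1. 

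Between RPB2 and RPB1, 9 genes met this. Called higher in RPB2 and lower in RPB1 were Xrn2 (2.01 ± 0.11), Cpsf3 (1.71 ± 0.12), Ints4 (1.47 ± 0.14), Nudt21 (1.42 ± 0.11), Cpsf6 (1.33 ± 0.14) and Ints8 (1.11 ± 0.17). Called lower in RPB2 and higher in RPB1 were Papolg (-4.51 ± 0.43), Clp1 (-3.73 ± 0.23) and Rbbp6 (-3.08 ± 0.20).

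Between RPB6 and RPB1, 14 genes met this. Called higher in RPB6 and lower in RPB1 were Xrn2 (1.94 ± 0.11), Papola (1.62 ± 0.16), Nudt21 (1.55 ± 0.11), Ints13 (1.43 ± 0.15), Cpsf3 (1.40 ± 0.12), Ints4 (1.39 ± 0.14), Cpsf6 (1.32 ± 0.14), Ints3 (1.30 ± 0.12), Ints8 (0.93 ± 0.17), Cpsf4 (0.84 ± 0.16) and Cstf3 (0.80 ± 0.14). Called lower in RPB6 and higher in RPB1 were Clp1 (-2.97 ± 0.21), Papolg (-2.56 ± 0.29) and Rbbp6 (-1.54 ± 0.17).

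Between RPB6 and RPB2, 3 genes met this. Called higher in RPB6 and lower in RPB2 were Papola (1.48 ± 0.17), Ints13 (1.20 ± 0.16) and Cstf3 (0.63 ± 0.14).

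Between RPB2 and RPB8, 8 genes met this. The pair was added after seeing the data. Called higher in RPB2 and lower in RPB8 were Xrn2 (1.66 ± 0.11), Ints8 (1.46 ± 0.18) and Ints4 (1.40 ± 0.14). Called lower in RPB2 and higher in RPB8 were Clp1 (-4.45 ± 0.23), Cstf1 (-4.03 ± 0.16), Ints12 (-3.80 ± 0.30), Cstf2t (-3.31 ± 0.19) and Ints5 (-1.88 ± 0.16).

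Between RPB6 and RPB8, 12 genes met this. The pair was added after seeing the data. Called higher in RPB6 and lower in RPB8 were Ints3 (2.83 ± 0.14), Papola (1.92 ± 0.17), Ints13 (1.85 ± 0.16), Cstf3 (1.69 ± 0.15), Xrn2 (1.59 ± 0.11), Ints4 (1.32 ± 0.14) and Ints8 (1.27 ± 0.18). Called lower in RPB6 and higher in RPB8 were Cstf2t (-4.06 ± 0.20), Cstf1 (-3.77 ± 0.15), Clp1 (-3.69 ± 0.21), Ints12 (-2.95 ± 0.26) and Ints5 (-2.52 ± 0.17).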

How the results depend on the processing

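Of 231 called changes of single genes among the 34, at 12 h and in RPB1 at 1 h, 218 kept sign and call with RLE size factors and 13 kept the sign without the call. With scaling to total counts 198 kept both, 26 lost the call and 7 changed sign, to these log2 values: in RPB2 Ints8 (-0.35), Ints4 (-0.15) and Cpsf6 (-0.14), in RPB6 Cstf3 (-0.29), Ints3 (-0.037), Ints8 (-0.30) and Cpsf4 (-0.25). With scaling to mitochondrial mRNAs 118 kept both, 56 lost the call and 57 changed sign. The values with a changed sign were in RPB1 Ints1 (-0.32), Sympk (-0.17), Rbbp6 (-0.27) and Ints9 (-0.27). In RPB2 Xrn2 (-1.21), Ints8 (-1.71), Ints1 (-0.79), Sympk (-0.55), Ints4 (-1.50), Nudt21 (-1.10), Cpsf6 (-1.50), Cpsf3 (-0.72), Pabpn1 (-0.92), Ints9 (-1.33) and Cpsf1 (-0.78) changed sign. In RPB3 Cstf1 (0.38), Fip1l1 (0.42), Ints13 (0.48), Ints4 (0.32), Ints10 (0.50), Nudt21 (0.57), Cpsf3 (0.17), Wdr33 (0.46), Cpsf7 (0.35) and Cstf2t (0.36) changed sign. In RPB5 Ints1 (-0.085), Sympk (-0.086), Rbbp6 (-0.20), Pabpn1 (-0.019) and Ints5 (-0.18) changed sign. In RPB6 Cstf3 (-1.63), Xrn2 (-1.03), Ints3 (-1.38), Ints8 (-1.64), Ints1 (-0.65), Cpsf4 (-1.59), Ints13 (-1.20), Sympk (-0.61), Ints4 (-1.33), Nudt21 (-0.72), Cpsf6 (-1.25), Cpsf3 (-0.79), Papola (-1.04), Pabpn1 (-1.13), Ints9 (-0.71) and Cpsf1 (-0.92) changed sign. In RPB8 Clp1 (-0.18), Cstf1 (-0.55), Ints12 (-1.05), Ints1 (-0.97), Cpsf4 (-1.12), Sympk (-0.73), Cpsf3 (-1.24), Cpsf1 (-0.82), Ints5 (-0.82) and Cstf2t (-0.20) changed sign. In RPB10 Ints3 (-0.011) changed sign. The cause was not tested, except that in RPB3 the mitochondrial share differs between the IAA libraries: with mitochondrial mRNAs 15 of the 34 were called, all lower, without IAA replicate 1, and 33, all higher, without IAA replicate 2, an alternative chosen after seeing the data.

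The count of the 34 called with mitochondrial mRNAs was 14 in RPB7, 2 in RPB9, 4 in RPB10, 0 in RPB11 (edgeR, with 7 called by TMM) and 3 in RPB1 at 1 h. For the response minus that of WT it was 9 in RPB3, 4 in RPB7, 1 in RPB9, 0 in RPB10 and 0 in RPB11, for RPB6 minus RPB1 14, for RPB6 minus RPB2 6, for RPB2 minus RPB8 17 and for RPB6 minus RPB8 14. With only the 4 libraries of a comparison, which leaves fewer samples to estimate the spread, the count was 1 in WT, 23 in RPB9, 1 in RPB11, 3 in RPB12 and 2 in RPB6 at 1 h, and with no filter on low counts it was 2 in RPB6 at 1 h. Every other count of the 34, with DESeq2, RLE factors, total counts or no filter, was within 1.5 times the value reported.

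Leaving out each library in turn kept sign and call in 810 of 924 values and reversed none, and 181 of the 231 calls held in every such fit. The lone sample left in a group was assumed to vary like the other groups. Counts ranged from 22 to 23 in RPB1, 27 to 30 in RPB2, 14 to 17 in RPB3, 23 to 27 in RPB5, 27 to 29 in RPB6, 19 to 24 in RPB7, 28 to 29 in RPB8, 10 to 13 in RPB9, 10 to 15 in RPB10, 4 to 12 in RPB11 and 4 to 11 in RPB1 at 1 h, and were 0 in WT, RPB4, RPB12 and, at 1 h, RPB3 and RPB6. The RPB10 count was 10 without IAA replicate 1, the RPB11 count 12 without untreated replicate 2 and 4 without IAA replicate 1, and the RPB1 count at 1 h 4 without 0 h replicate 1, 6 without 1 h replicate 1 and 5 without 1 h replicate 2.

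Libraries with the same replicate number did not deviate together (correlations of -0.148 to 0.0551 over 2 pairs a line). With 2 libraries a group this cannot show whether those of the same number were handled together. With the replicate block 227 of the 231 calls kept sign and call and 4 kept the sign without the call. The count with the block was 5 for RPB9 minus WT, 5 for RPB10 minus WT and 3 for RPB6 at 1 h, and within 1.5 times the reported value elsewhere (13 in RPB1 at 1 h, 30 in RPB6, 29 in RPB2). With the pairing of RPB7 crossed, an alternative chosen after seeing the data, 23 of the 34 were called, as with the numbered pairing.

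Depth limits the lowest levels: genes with 3 to 9 counts a library, as Papolg, Ints6 and Ints12 in RPB2 with IAA, have folds of low precision.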
